A study of Mus musculus with 123 samples.

Results

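The 10 genes described here build the machinery with which cells show fragments of their own cytosolic proteins to CD8 T cells, and they were followed in whole lungs of mice in an ovalbumin (OVA) asthma model. They were taken by name: the class I heavy chains H2-K1 and H2-D1, their light chain B2m, the peptide transporter subunits Tap1 and Tap2, the loading factor Tapbp, the immunoproteasome subunits Psmb8, Psmb9 and Psmb10, and the class I transactivator Nlrc5. All 10 were among the 13053 genes tested, each through the probe set with the highest mean. The values are microarray signals on a log2 scale, on which a difference of 1 is a doubling of signal, and levels are not comparable between genes.

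The 62 sensitized mice were BALB/c animals sensitized to OVA, taken 0, 2, 6, 48, 72, 96 and 168 h after the OVA challenge in groups of 8 and at 24 h in a group of 6. The 61 naive mice, also BALB/c, were taken in groups of 8 at 0, 6, 24, 72 and 168 h and of 7 at 2, 48 and 96 h. The design text has both arms challenged with OVA, whereas naive titles carry the word PBS, so that what naive mice received cannot be told from the labels; their age and sex are not stated in the sources used here. Each array held the lung RNA of 1 mouse, and 9 lung epithelial markers, among them surfactant and club cell genes, averaged at most 13.22 on each array, with group medians between 13.10 and 13.18. Array medians lay between 9.319 and 9.441. High squamous epithelium or skeletal muscle markers, more than 2 log2 units above the median array, marked 9 arrays, among them sensitized replicates 3 and 7 and naive replicates 1 and 8 at 6 h. Results at 6 h are therefore also given without them.

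In class I presentation the proteasome cuts cytosolic proteins, the TAP transporter carries the peptides into the endoplasmic reticulum, and tapasin (Tapbp) helps to load them onto a heavy chain paired with beta-2 microglobulin (B2m). Interferon gamma is known to replace the constitutive catalytic proteasome subunits Psmb5, Psmb6 and Psmb7 with Psmb8, Psmb9 and Psmb10. It is also known to induce Nlrc5, a nuclear protein that acts at shared promoter elements of class I genes. In lung the pathway is best known from viral infection, and it also serves dendritic cells that present inhaled antigen to CD8 T cells.

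Promoter sequences of 5 members are shown because the members differed widely in how far they moved. They are RefSeq sequences of build GRCm38.p6, which is the C57BL/6J strain and not BALB/c, from 250 bases before to 50 bases after the start site, 5′ to 3′ on the gene's strand. Capitals mark matches on either strand to 5 motifs. They are an interferon response core (GAANNGAAA or GAAANNGAA), a gamma activated site (TTCNNNGAA), a kappa B-like motif (GGGNNTTCC) and the cyclic AMP response element core TGACG. The last is the CCAAT box, searched by the letters of its name. The H2-K1 window is chr17:34000298-34000597 on the minus strand, the H2-D1 window chr17:35262844-35263143 on the plus strand, the B2m window chr2:122147437-122147736, the Tap1 window chr17:34187306-34187605 and the Psmb8 window chr17:34197945-34198244, the last 4 of these being on the plus strand.
H2-K1: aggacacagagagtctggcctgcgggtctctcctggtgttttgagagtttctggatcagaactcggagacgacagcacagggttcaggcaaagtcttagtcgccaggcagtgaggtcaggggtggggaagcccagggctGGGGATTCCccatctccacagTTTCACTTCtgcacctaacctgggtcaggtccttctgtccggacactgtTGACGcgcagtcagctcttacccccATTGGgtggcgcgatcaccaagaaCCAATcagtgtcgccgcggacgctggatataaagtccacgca
H2-D1: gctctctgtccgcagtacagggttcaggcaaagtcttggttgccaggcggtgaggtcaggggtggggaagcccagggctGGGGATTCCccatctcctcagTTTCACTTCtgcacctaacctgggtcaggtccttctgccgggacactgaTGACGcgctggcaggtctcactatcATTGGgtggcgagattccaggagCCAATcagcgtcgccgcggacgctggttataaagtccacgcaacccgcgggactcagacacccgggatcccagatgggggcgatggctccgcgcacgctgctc
B2m: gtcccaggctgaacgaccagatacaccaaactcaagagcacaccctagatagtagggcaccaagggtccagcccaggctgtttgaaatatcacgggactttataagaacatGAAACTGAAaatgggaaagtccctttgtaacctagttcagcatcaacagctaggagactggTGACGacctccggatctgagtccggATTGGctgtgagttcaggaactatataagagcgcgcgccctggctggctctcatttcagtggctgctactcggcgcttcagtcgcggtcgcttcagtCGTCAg
Tap1: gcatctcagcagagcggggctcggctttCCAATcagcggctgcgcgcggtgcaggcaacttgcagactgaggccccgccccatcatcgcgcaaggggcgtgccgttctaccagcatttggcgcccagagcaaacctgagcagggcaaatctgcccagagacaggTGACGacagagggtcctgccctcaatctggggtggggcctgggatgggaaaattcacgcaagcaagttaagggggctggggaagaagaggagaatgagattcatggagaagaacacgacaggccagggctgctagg
Psmb8: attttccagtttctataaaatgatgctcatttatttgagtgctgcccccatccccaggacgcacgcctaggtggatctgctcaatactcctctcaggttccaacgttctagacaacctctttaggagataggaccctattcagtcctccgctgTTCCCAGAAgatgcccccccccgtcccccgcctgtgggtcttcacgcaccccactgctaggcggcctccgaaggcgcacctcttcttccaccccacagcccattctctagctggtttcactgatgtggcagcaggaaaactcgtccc
H2-K1 and H2-D1 held, in the same order, a kappa B-like motif, an interferon core, a TGACG and 2 CCAAT boxes. B2m held an interferon core, a TGACG and a CCAAT box upstream and another TGACG after the start site. In all 3 the TGACG was followed 25 bases further on, counted between first bases, by the CCAAT box read on the other strand (ATTGG). These stretches of 30 bases are set out here to show the shared spacing; capitals mark the 2 motifs.
H2-K1 pair: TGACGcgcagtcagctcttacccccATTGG
H2-D1 pair: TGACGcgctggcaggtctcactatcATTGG
B2m pair: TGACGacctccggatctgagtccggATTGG
Of 32851 promoter windows of the table, 31 (0.0944%) held such a pair at this distance in either orientation, including that of H2-M3, a class I molecule that presents formylated peptides. The distance of 25 was chosen because it was seen in the members. Tap1 and Psmb9 are neighbours read in opposite directions, with start sites 225 bases apart and windows that share 275 bases, and each window held 1 TGACG and 1 CCAAT box. The Psmb8 window held a gamma activated site and none of the other 4 motifs, that of Tapbp 2 CCAAT boxes, and that of Psmb10 no match. Of all windows, 14.8% held the interferon core, 8.3% the gamma activated site, 20.8% the TGACG, 37.4% the CCAAT box and 5.82% the kappa B-like motif. A match is a run of letters and not a shown binding site.

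The median difference of the 10 members from naive lung was highest at 6 h, and the transporter, the immunoproteasome and Nlrc5 led. H2-K1 differed most at 72 h and B2m at 24 h. Of the 10 members, 9 were higher in sensitized than in naive lungs at 6 h (limma, Benjamini-Hochberg adjustment over 13053 genes, threshold 0.05), beside 24.6% of all genes called higher and 33.2% called lower. The median difference of the members was 0.78 on the log2 scale, against -0.04 over all genes. B2m was the member not called. Members spanned differences of 0.05 to 1.55 at that time.

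**Figure D1:**
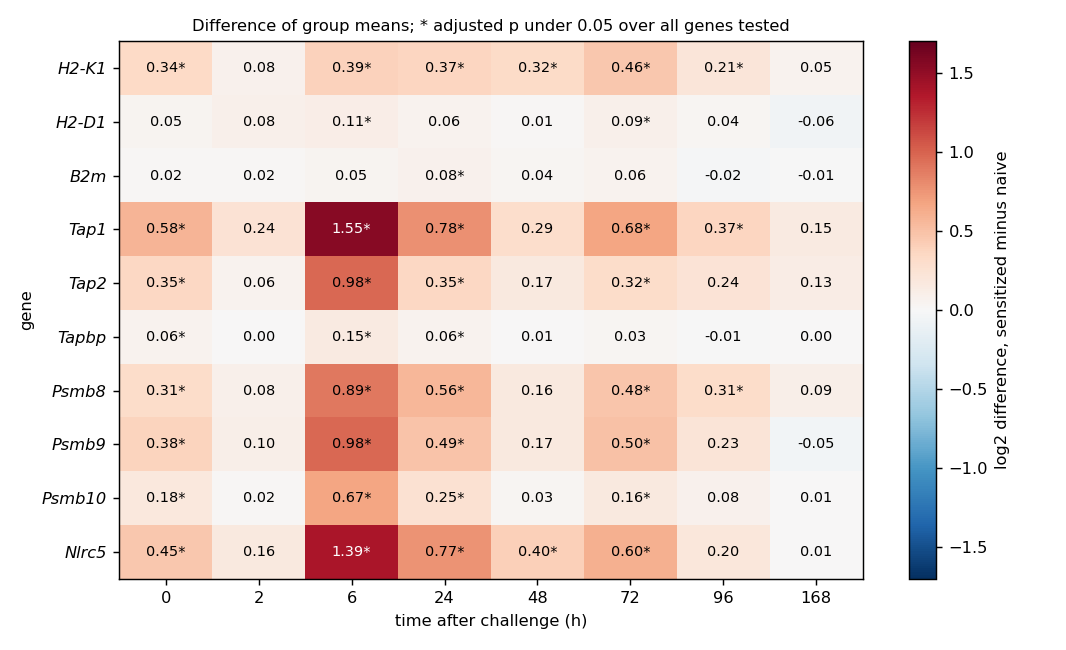
Log2 difference of group means, sensitized minus naive, for the 10 members (rows) at 8 times after challenge (columns), with an asterisk where the adjusted p over all genes was under 0.05. The column at 6 h holds the highest values for 8 members, up to 1.55 for Tap1, while H2-K1 is highest at 72 h (0.46) and B2m at 24 h (0.08).

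Tap1, the transporter subunit that shares its promoter region with Psmb9, had a lowest, median and highest log2 value of 10.79, 12.37 and 12.80 in sensitized lungs at 6 h, against 10.36, 10.48 and 10.81 in naive lungs. All sensitized mice but replicate 3 stood above every naive mouse. Tap1 was higher by 1.55 ± 0.14 (SE, 8 and 8 mice), or 2.93-fold (adjusted p = 3.4e-16, limma). A second, dim Tap1 probe set with a mean of 7.90 differed at 6 h by 0.14, so the size for Tap1 rests on the brighter probe set. Tap2, the partner subunit of the transporter, had 10.65, 11.77 and 12.07 in sensitized lungs against 10.49, 10.58 and 10.67 in naive lungs, and was higher by 0.98 ± 0.11 (1.97-fold, adjusted p = 1.67e-13, limma). The groups overlapped for Tap2 by sensitized replicate 3 alone.

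Nlrc5, the transactivator of class I genes, had 10.49, 11.95 and 12.30 in sensitized lungs at 6 h, against 10.15, 10.30 and 10.49 in naive lungs. It was higher by 1.39 ± 0.14 (SE), or 2.62-fold (adjusted p = 2.94e-14, limma), and every sensitized lung but that of replicate 3 exceeded all naive lungs. Nlrc5 and Tap1 were thus the members furthest from naive lung. At 24 h Nlrc5 averaged 11.04 ± 0.13 in 6 sensitized lungs and 10.27 ± 0.26 in 8 naive lungs (SD), and the groups no longer overlapped.

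All 3 immunoproteasome subunits were higher at 6 h. Psmb9, which takes the place of Psmb6, had 11.62, 12.45 and 12.85 in sensitized lungs against 11.23, 11.40 and 11.55 in naive lungs, a difference of 0.98 ± 0.097 (1.97-fold, adjusted p = 5.25e-15, limma). It was the member whose 8 sensitized mice all stood above every naive mouse at that time, as was so for 1.50% of all genes. Psmb8, the replacement of Psmb5, had 11.64, 12.58 and 12.94 in sensitized lungs against 11.39, 11.60 and 11.72 in naive lungs, a difference of 0.89 ± 0.093 (1.86-fold, adjusted p = 3.83e-14, limma). Psmb10, the replacement of Psmb7, had 12.05, 12.76 and 12.95 in sensitized lungs against 11.87, 11.97 and 12.07 in naive lungs, a difference of 0.67 ± 0.065 (1.59-fold, adjusted p = 1.68e-15, limma). For Psmb8 and Psmb10 sensitized replicate 3 alone lay within the naive range.

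The presenting molecules themselves moved less. H2-K1, one of the classical heavy chains, had 12.30, 12.67 and 12.80 in sensitized lungs at 6 h against 12.12, 12.21 and 12.31 in naive lungs, and was higher by 0.39 ± 0.062 (1.31-fold, adjusted p = 6.3e-08, limma). H2-D1, the other classical heavy chain measured, had 14.01, 14.11 and 14.27 in sensitized lungs against 13.94, 14.03 and 14.05 in naive lungs, and was higher by 0.11 ± 0.032 (1.08-fold, adjusted p = 0.00164, limma). Tapbp was higher by 0.15 ± 0.020 (1.11-fold, adjusted p = 1.09e-09, limma), with 13.71, 13.85 and 13.92 in sensitized lungs against 13.63, 13.70 and 13.72 in naive lungs. B2m, the light chain that every class I molecule needs, had 13.96, 14.07 and 14.12 in sensitized lungs against 13.95, 14.01 and 14.06 in naive lungs, a difference of 0.05 ± 0.028 that did not pass (adjusted p = 0.128, limma). B2m passed at 6 h by its second probe set (0.11), by the mean of both (0.08) and after quantile normalization (0.09).

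Probe sets of H2-D1, B2m and Tapbp had means between 13.72 and 14.07, and less bright probe sets of the same genes gave larger differences. At 6 h these were 0.22 and 0.25 for the other H2-D1 probe sets, 0.56 for the second H2-K1 probe set and 0.48 for the second Tapbp probe set. Of 17 probe sets that name a member, 1 names both H2-K1 and H2-D1 and differed by 0.51. All probe sets of these heavy chains are of the type whose probes can match related transcripts, and BALB/c mice carry other alleles of both genes than the strain of the RefSeq sequence. Signal of H2-K1, H2-D1 and related heavy chains can therefore not be fully told apart, and the part of brightness in the small differences of H2-D1, B2m and Tapbp was not tested.

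Sensitized mice differed from each other at 6 h in the same order for most members. Replicate 3 was the lowest sensitized mouse for 9 of 10 members, at 10.79 for Tap1 and 10.49 for Nlrc5, and replicate 7 was the highest for 8. Replicate 2 was next lowest for Tap1 at 11.11, while the other 6 mice stood between 12.08 and 12.80. Replicate 3 carried high skeletal muscle markers and replicate 7 high squamous markers. Without the arrays of other tissue, every sensitized mouse stood above every naive mouse for 9 of 10 members, with 6 mice in each group, beside 8.47% of all genes. With all mice this was so for 1 of 10 members. The arrays left out include sensitized replicate 3, the mouse by which most members overlapped. The difference was then 1.62 for Tap1 and 1.49 for Nlrc5, and the same 9 members were called.

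**Figure D2:**
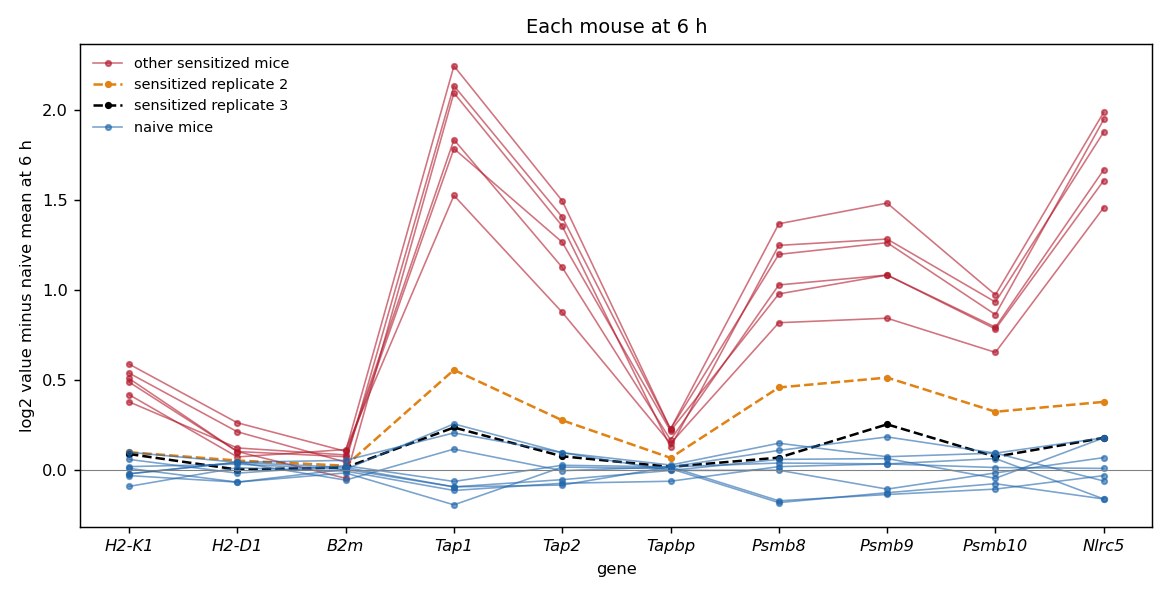
Log2 value of each mouse at 6 h minus the naive mean of that gene, for the 10 members along the horizontal axis, with 1 line per mouse. Sensitized replicate 3 (black, dashed) lies with the naive mice (blue) for most genes, replicate 2 (orange, dashed) lies between, and the other 6 sensitized mice (red) lie well above for Tap1, Tap2, Nlrc5 and the 3 immunoproteasome subunits.

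At 0 h 8 of 10 members were already higher in sensitized lungs, beside 14.2% of all genes called higher and 12.3% called lower. H2-D1 and B2m were not called. Tap1 had 10.56, 11.09 and 11.82 in sensitized lungs against 10.27, 10.54 and 10.75 in naive lungs, a difference of 0.58 ± 0.14 (1.49-fold, adjusted p = 0.00171, limma). H2-K1 was higher by 0.34 ± 0.062 (adjusted p = 1.94e-05, limma), which was 87.4% of its difference at 6 h, whereas for the other called members this share lay between 27.0% (Psmb10) and 39.8% (Tapbp). Sensitized replicates 1 and 6 stood highest, with 11.65 and 11.82 for Tap1 and 11.54 and 11.63 for Nlrc5, and replicate 2 was lowest for 7 members. The number of members called at 0 h was 4 without replicate 1 and 5 without replicate 6. No member's groups were free of overlap at 0 h, while every sensitized mouse stood above every naive mouse for 1.98% of all genes. Naive replicates 1 and 3 at 0 h are among the arrays with other tissue, and without those arrays 7 members were called, since Tapbp did not pass (0.05, adjusted p = 0.0557, limma).

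At 2 h no member was called, beside 1.84% of all genes called higher and 1.92% called lower. At an unadjusted p under 0.05, H2-D1 alone was higher, while 2268 of 13053 genes passed in either direction. The median difference of the members was 0.08. Between 0 and 2 h, H2-K1 fell by 0.20 ± 0.062 (adjusted p = 0.00881, limma) and Nlrc5 fell by 0.40 ± 0.14 (adjusted p = 0.0236, limma) in sensitized lungs, 2 of 10 members beside 18.0% of all genes. Sensitized replicates 5 and 8 stood highest at 2 h, with 11.31 and 11.56 for Tap1.

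From 2 to 6 h, 8 of 10 members rose in sensitized lungs, beside 22.1% of all genes, led by Tap1 (1.20 ± 0.14, adjusted p = 2.24e-11, limma) and Nlrc5 (1.08 ± 0.14, adjusted p = 4.98e-10, limma). From 6 to 24 h, 7 fell, beside 12.9% of all genes. Tap1 fell by 0.78 and Nlrc5 fell by 0.66, while H2-K1 was 12.60 at 6 h and 12.64 at 24 h. From 24 to 48 h Psmb8 fell by 0.30 and Psmb10 fell by 0.23, beside 12.3% of all genes that fell. From 72 to 96 h Psmb8 fell by 0.30, beside 5.34% of all genes. From 96 to 168 h Psmb9 fell by 0.50, H2-K1 fell by 0.34 and H2-D1 fell by 0.15, beside 14.8% of all genes.

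The difference from naive lung changed between 0 and 6 h for 7 of 10 members, all of them growing, beside 24.6% of all genes called in either direction. Of the genes called, 1308 of 13053 tested had a higher difference at 6 h than at 0 h and 1902 a lower one. The difference grew by 0.97 ± 0.20 for Tap1 (adjusted p = 0.000197, limma), by 0.93 ± 0.20 for Nlrc5 (adjusted p = 0.000315, limma) and by 0.49 ± 0.092 for Psmb10 (adjusted p = 3.5e-05, limma). Tap2, Psmb9, Psmb8 and Tapbp grew by 0.63, 0.59, 0.58 and 0.09. H2-K1, H2-D1 and B2m did not pass this test at 6 h. At no other time was the change since 0 h called for any member, beside 6.69% of genes called in either direction at 2 h, 5.49% at 24 h, 0% at 48 h, 2.54% at 72 h, 3.12% at 96 h and 1.94% at 168 h. At an unadjusted p under 0.05 the change was lower for H2-K1 and Psmb9 at 2 h, for Tapbp at 96 h and for 5 members at 168 h. In either direction 2931 of 13053 genes passed at 2 h, 1438 at 48 h, 2525 at 96 h and 2413 at 168 h. Over all 7 contrasts together the difference varied with time for 9 of 10 members, all but B2m (adjusted p = 0.349, limma F test), where 62.5% of all genes did.

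**Figure D3:**
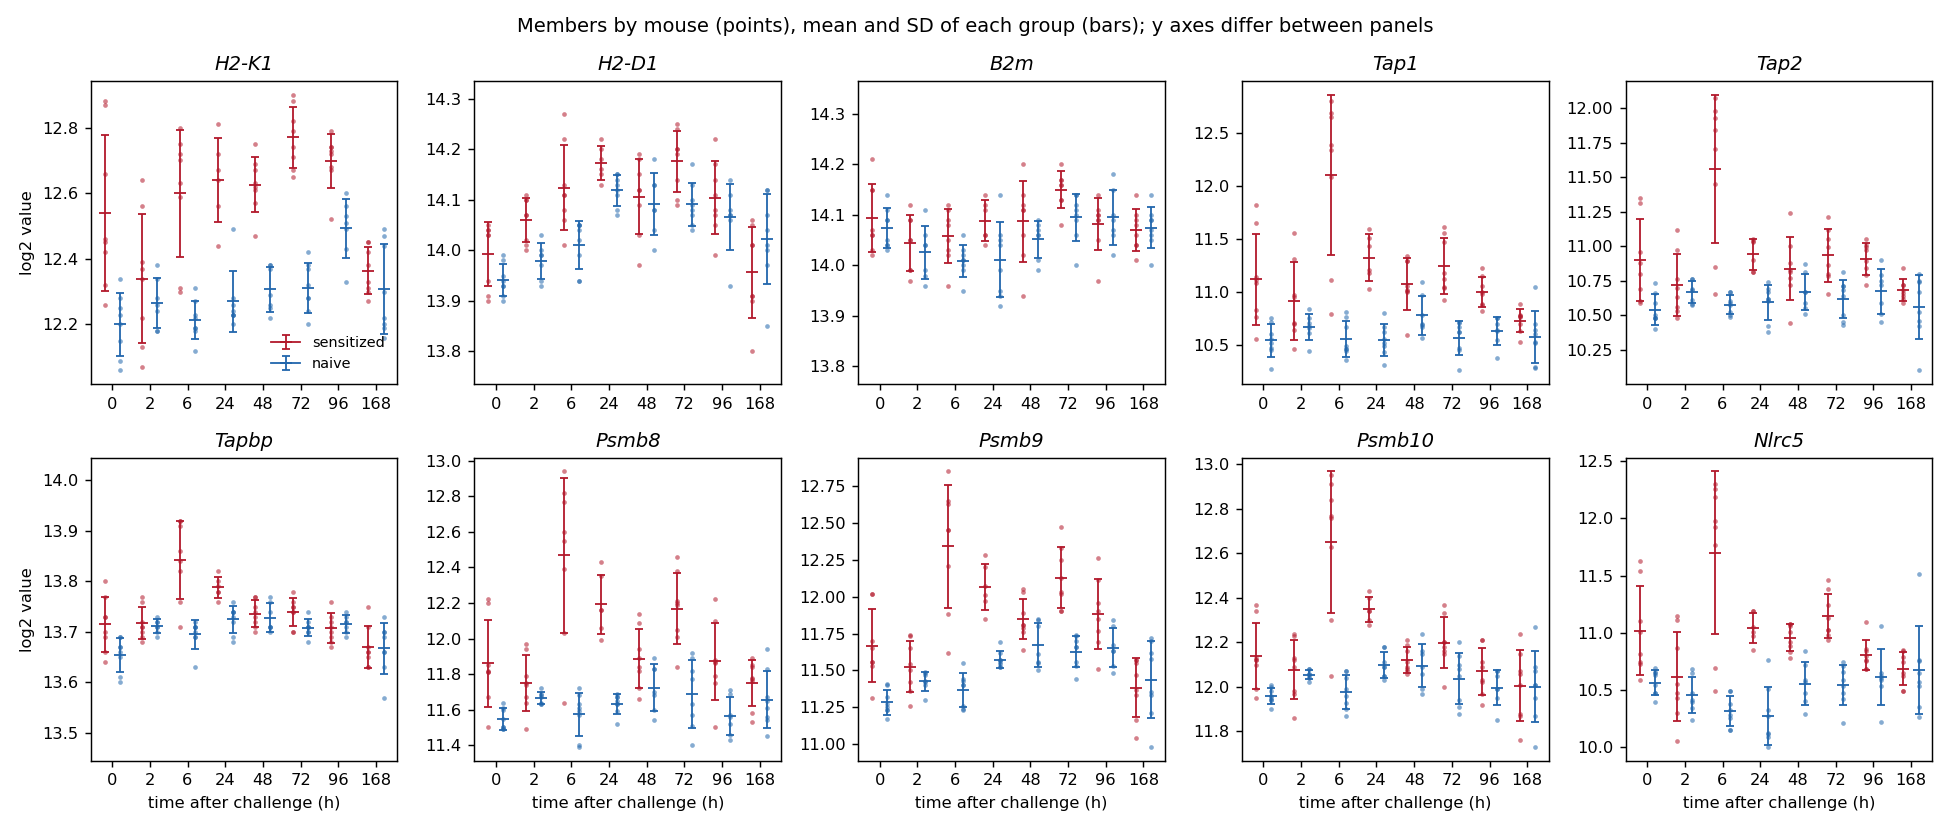
Log2 value of each mouse (points) with the mean and SD of each group (bars), sensitized in red left of naive in blue, for the 10 members at 8 times after challenge; the vertical axes differ between genes. Tap1, Tap2, Nlrc5 and the 3 immunoproteasome subunits stand out at 6 h. The mean of H2-K1 lies above that of naive lung at each of the 8 times, and was called higher at 0 h and from 6 to 96 h.

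At 24 h 9 of 10 members were higher in sensitized lungs, all but H2-D1, beside 22.8% of all genes called higher and 24.9% called lower. Every sensitized mouse stood above every naive mouse for 6 members, beside 13.0% of all genes. Tap1 had 11.03, 11.32 and 11.59 in 6 sensitized lungs against 10.31, 10.54 and 10.80 in naive lungs, a difference of 0.78 ± 0.16 (1.71-fold, adjusted p = 1.77e-05, limma). Psmb8 was higher by 0.56 ± 0.10 (1.47-fold), with 11.99, 12.16 and 12.43 in sensitized lungs against 11.52, 11.64 and 11.69 in naive lungs. The members' median difference was 0.36, less than at 6 h (0.78), while the spread between sensitized mice was narrower: the SD of Tap1 was 0.75 at 6 h and 0.22 at 24 h. B2m was called only at this time (0.08 ± 0.030, adjusted p = 0.0226, limma), and not without any 1 of 4 mice or after median centring.

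At 48 h 2 of 10 members were called higher, beside 17.0% of all genes called higher and 18.1% called lower. H2-K1 had 12.47, 12.63 and 12.75 in sensitized lungs against 12.22, 12.29 and 12.38 in naive lungs, without overlap, a difference of 0.32 ± 0.064 (adjusted p = 3.79e-05, limma). How many of all genes were without overlap at 48 h is not given here. Nlrc5 was higher by 0.40 ± 0.15 (adjusted p = 0.0268, limma), and not without naive replicate 4 or 5. Tap1 reached 0.29 (adjusted p = 0.116, limma), with 10.59, 11.04 and 11.34 in sensitized lungs against 10.57, 10.70 and 11.09 in naive lungs. With weights for array quality 6 members passed at 48 h, among them Tap1, and the share of all genes then called is not given here.

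At 72 h 8 of 10 members were called higher, all but B2m and Tapbp, beside 22.2% of all genes called higher and 26.3% called lower. H2-K1 had its largest difference here, with 12.65, 12.77 and 12.90 in sensitized lungs against 12.20, 12.30 and 12.42 in naive lungs, 0.46 ± 0.062 or 1.38-fold (adjusted p = 7.16e-10, limma). Tap1 was higher by 0.68 ± 0.14 (1.6-fold) and Nlrc5 by 0.60 ± 0.14 (1.52-fold), and neither overlapped. How many of all genes were without overlap at 72 h is not given here. Psmb9 had 11.90, 12.08 and 12.47 in sensitized lungs against 11.44, 11.66 and 11.74 in naive lungs, a difference of 0.50 ± 0.097 without overlap. For Tap1, Tap2, Nlrc5 and the immunoproteasome subunits the difference at 72 h was between 23.8% (Psmb10) and 53.4% (Psmb8) of that at 6 h, whereas for H2-K1 it was 119%. The call of Psmb10 (0.16, adjusted p = 0.0331, limma) was lost without any 1 of 5 mice, and that of H2-D1 (0.09, adjusted p = 0.0206, limma) without sensitized replicate 7 or after quantile normalization.

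At 96 h H2-K1, Tap1 and Psmb8 were called higher, 3 of 10 members beside 21.2% of all genes called higher and 20.8% called lower. H2-K1 had 12.52, 12.73 and 12.79 in sensitized lungs against 12.33, 12.51 and 12.60 in naive lungs, a difference of 0.21 ± 0.064 (adjusted p = 0.00575, limma). Tap1 was higher by 0.37 ± 0.15 without overlap (adjusted p = 0.0363, limma), and the call was lost without any 1 of 5 mice. How many of all genes were without overlap at 96 h is not given here. Without the arrays of other tissue 5 members passed, Tap2 and Psmb9 as well. None of those arrays was taken at 96 h, and the differences of Tap2 (0.24) and Psmb9 (0.23) stayed the same. The same number of members passed without sensitized replicate 3. At 168 h no member was called, beside 3.40% of all genes called higher and 1.41% called lower. At an unadjusted p under 0.05 H2-D1 alone was lower, while 2509 of 13053 genes passed in either direction. Tap1 then had 10.53, 10.77 and 10.89 in sensitized lungs against 10.28, 10.57 and 11.05 in naive lungs.

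Ordered by their 16 group means, Tap1, Tap2, Tapbp and the immunoproteasome subunits and Nlrc5 all had sensitized lung at 6 h as the highest group, and H2-K1, H2-D1 and B2m sensitized lung at 72 h. For H2-K1 the 6 highest means, 12.77 at 72 h down to 12.54 at 0 h, were sensitized groups, and neighbours in this order differed by less than the SD within those groups, 0.08 to 0.24. Its ends were further apart: sensitized lung at 72 h was higher than at 0 h by 0.23 ± 0.062 (SE, adjusted p = 0.00272, limma). The means of B2m lay between 14.01 and 14.15 over all groups, beside SDs of 0.03 to 0.08 within groups, and varied over time in sensitized lungs (adjusted p = 0.0176, limma F test) and in naive lungs (adjusted p = 0.0127, limma F test). In naive lung 5 of 10 members varied over the 8 times (H2-K1, H2-D1, B2m, Tapbp and Psmb9), beside 38.4% of all genes. Psmb9 in naive lung was higher by 0.39 ± 0.10 at 48 h than at 0 h (adjusted p = 0.00414, limma), and H2-K1 by 0.29 ± 0.064 at 96 h (adjusted p = 0.000504, limma). Naive Tap1, Tap2, Psmb8, Psmb10 and Nlrc5 did not pass.

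The members' profiles were alike to different extents over the 16 group means, which share the arms and times and are described without a test. Tap1 and Tap2 had the highest Pearson correlation (0.982), Psmb8 was nearest to Tap1 (0.961), Nlrc5 to Tap1 (0.948) and Psmb10 to Tapbp (0.944). H2-K1 and H2-D1 were nearest to Psmb9 (0.85 and 0.818). B2m stood apart, with a median of 0.35 to the other members. The genes outside the set nearest to the members' mean profile were Map3k14 (0.978), Nfkbie (0.975), Slc39a7 (0.969), Relb (0.968) and Irf8 (0.964). Map3k14 and Relb are parts of the noncanonical NF-kappa B pathway, Nfkbie is an NF-kappa B inhibitor, Slc39a7 a zinc transporter and Irf8 a transcription factor of dendritic cells and macrophages.

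The constitutive partners of the immunoproteasome subunits gave smaller differences. At 6 h Psmb5 and Psmb6 were each higher by 0.20 in sensitized lungs (adjusted p = 1.03e-07 and 2.5e-08, limma), and Psmb7 differed by 0.06 (adjusted p = 0.365, limma). The log2 ratio of Psmb9 to Psmb6, set to 0 at the naive mean at 0 h, was 0.80 ± 0.34 in sensitized lungs at 6 h and 0.02 ± 0.09 in naive lungs (SD, 8 mice each), and the groups did not overlap. That of Psmb8 to Psmb5 was 0.76 ± 0.33 in sensitized and 0.07 ± 0.10 in naive lungs, and that of Psmb10 to Psmb7 was 0.76 ± 0.25 in sensitized and 0.15 ± 0.10 in naive lungs; for each, all but 1 of 8 sensitized lungs exceeded every naive lung. The first 2 ratios were 0.64 and 0.59 in sensitized lungs at 72 h, against 0.21 and 0.17 in naive lungs. At 96 h Psmb7 was lower by 0.23 ± 0.062 in sensitized lungs (adjusted p = 0.00139, limma), so that its ratio, at 0.30 in sensitized and -0.01 in naive lungs, held up while Psmb10 itself differed by 0.08. Array ratios show unequal change and not the share of proteasomes of either kind.

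**Figure D4:**
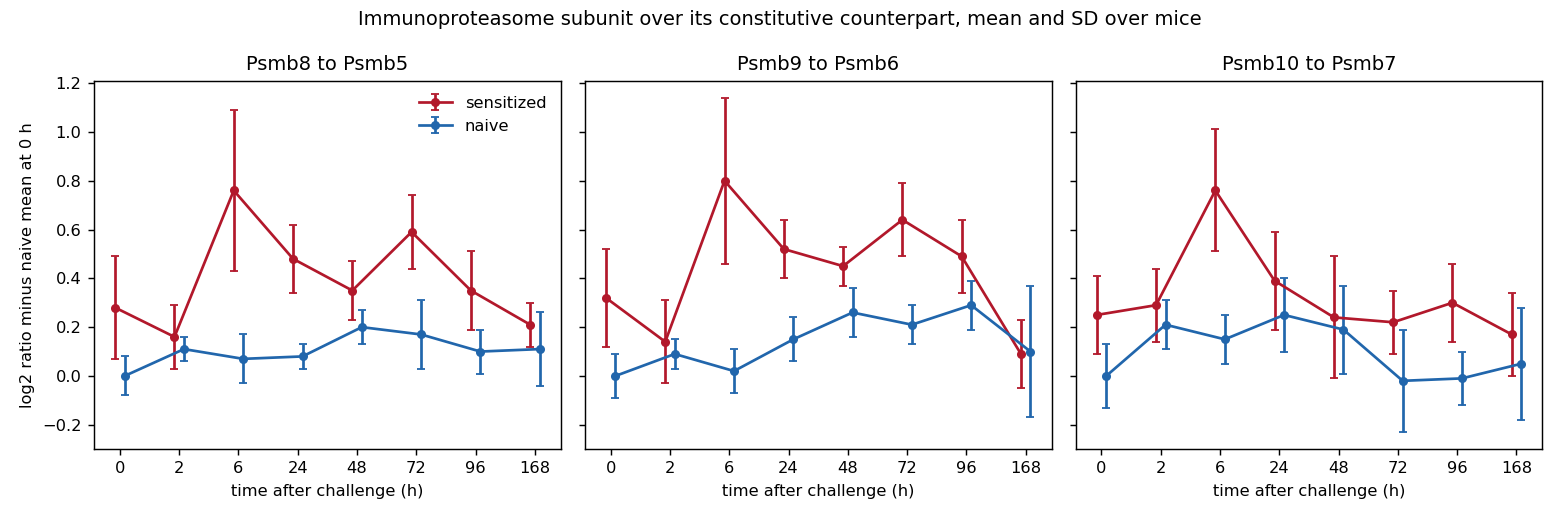
Log2 ratio of each immunoproteasome subunit to its constitutive counterpart, minus the naive mean at 0 h, as mean and SD over mice, in sensitized (red) and naive (blue) lungs by time after challenge. All 3 ratios are highest in sensitized lungs at 6 h (0.76, 0.80 and 0.76).

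The other genes of the pathway were read from lists. Of 11 proteasome activator, assembly and ubiquitin-like genes, all were higher at 6 h in sensitized lungs, with a median difference of 0.35. Psme1, Psme2, Pomp and Isg15 of this list were not among the genes tested, so that the activators read were Psme3 and Psme4. Ubd, the ubiquitin-like FAT10 that sends proteins to the proteasome, was higher by 4.17 ± 0.42 (adjusted p = 1.16e-14, limma), Herc6, the mouse ISG15 ligase, by 0.98 ± 0.13, Usp18, an ISG15 protease, by 0.72 ± 0.11, and the assembly chaperone Psmg1 by 0.58 ± 0.072. Of 10 genes of peptide trimming, loading and quality control, 8 were higher and none lower at 6 h and at 24 h, with medians of 0.26 and 0.32. At 24 h the chaperones Pdia6, Hspa5 and Hsp90b1 were higher by 0.63, 0.43 and 0.41, and the peptide trimming enzyme Erap1 by 0.37.

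Of 27 other heavy chains and class I-like molecules, 7 were among the genes tested, and at 6 h 3 were higher and 3 lower, beside 24.6% of all genes called higher and 33.2% called lower. The other 20 were not among the genes tested. H2-M3 was higher by 0.55 ± 0.068 at 6 h and 0.47 ± 0.068 at 72 h, and Hfe, the class I-like regulator of iron uptake, by 0.64 ± 0.070 at 24 h. Cd1d1, which presents lipids to NKT cells, was lower at 6 h and at 24 h (-0.27 and -0.40, adjusted p = 0.0111 and 0.00071, limma).

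Among 20 known regulators of class I genes, 16 were higher and 2 lower at 6 h, with a median difference of 0.51. Socs3, a feedback inhibitor of cytokine signalling, was higher by 1.38 ± 0.18, Relb by 1.16 ± 0.12, Ciita, the class II transactivator, by 1.07 ± 0.12, and Irf1, a transcription factor induced by interferon gamma, by 0.98 ± 0.093. Irf1 differed by 0.23 at 24 h (adjusted p = 0.0527, limma). Ifng itself was higher by 2.63 ± 0.27 at 6 h (adjusted p = 3.31e-14, limma) and by 1.38 ± 0.29 at 24 h, its receptor chain Ifngr2 by 0.61 ± 0.079 and the kinase Jak2 by 0.46 ± 0.045 at 6 h. Ifngr1, the other chain of that receptor, differed by -0.10 at 6 h (adjusted p = 0.0269, limma) and by -0.30 at 24 h (adjusted p = 7.01e-09, limma). Of 8 interferon, interferon receptor and receptor kinase genes 5 were higher and 2 lower at 6 h. Ifng was the only interferon among them, since Ifnb1, Ifna1, Ifna2, Ifna4, Ifnl2 and Ifnl3 were not among the genes tested.

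Of 11 GTPases and chemokines typical of interferon gamma, all were higher at 6 h, with a median of 1.61, among them Cxcl11 (5.57), Cxcl9 (5.13), Cxcl10 (4.37) and Gbp6 (2.35). Of 12 antiviral genes typical of type I interferon, all were higher, with a median of 0.97, led by Mx1 (1.83) and the transcription factor Irf7 (1.24). Between 0 and 6 h the difference grew in 11 of 11 and 12 of 12 genes of these lists. Of 13053 genes tested it grew in 1308 and shrank in 1902. At 72 h 7 of the 11 and 2 of the 12 were higher, with medians of 0.45 and 0.16, beside 0.39 for the class I members.

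The class II genes, whose products present taken-up antigen to CD4 T cells, were read the same way. All 9 were higher at 6 h and at 72 h, with medians of 0.37 and 0.50, and H2-DMa was higher by 0.69 and H2-Ab1 by 0.51 at 72 h. At 0 h 7 of the 9 were already higher, with a median of 0.34, beside 8 of 10 class I members, with 0.33, and 14.2% of all genes. The difference had grown between 0 and 6 h in none of the 9 at the adjusted threshold, and the median growth was 0.03. It had grown in 7 of 10 class I members and in 1308 of 13053 genes tested. The difference between the lists was not tested. For the transactivators, Nlrc5 and Ciita differed by 1.39 and 1.07 at 6 h but by 0.20 (adjusted p = 0.285) and 0.68 (adjusted p = 2.93e-06, limma) at 96 h, where the difference in the log2 ratio of Nlrc5 to Ciita was -0.48, without a test.

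**Figure D5:**
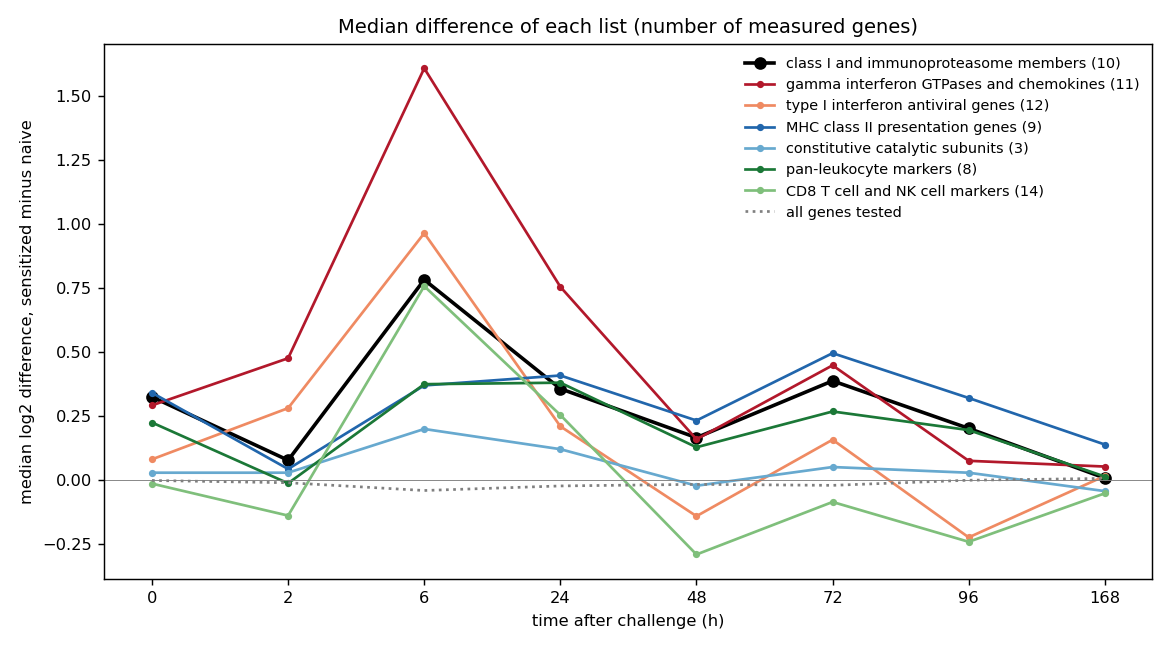
Median log2 difference, sensitized minus naive, of the 10 class I members (black), of 6 other lists and of all genes (dotted) at 8 times after challenge, with the number of measured genes in the key. The members peak at 6 h (0.78) below the interferon gamma list (1.61) and near the CD8 T cell and NK cell markers (0.76), and the class II list is highest at 72 h (0.50).

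Cell type markers were also compared at 6 h, where 24.6% of all genes were called higher and 33.2% lower. Of 14 CD8 T cell and natural killer cell markers 12 were higher at 6 h, led by the granzyme Gzmb (2.45). Their mean level was 8.84, 9.54 and 9.86 (lowest, median and highest) in sensitized lungs against 8.46, 8.63 and 8.90 in naive lungs. None of the 14 was called at 0 h. At 72 h 1 was higher and 2 lower, with a median difference of -0.08, beside 22.2% of all genes called higher and 26.3% lower. Of 8 pan-leukocyte markers 7 were higher at 6 h, with mean levels of 11.91, 12.35 and 12.50 in sensitized lungs against 11.66, 11.93 and 12.36 in naive lungs. At 0 h 6 of the 8 were higher, with a median difference of 0.23, beside 14.2% of all genes called higher and 12.3% lower. At 72 h all 8 were higher, with a median difference of 0.27. Of 7 markers of cross-presenting dendritic cells 4 were higher and 2 lower at 6 h, with a median difference of 0.33. Batf3, a transcription factor these cells need, was higher by 2.44. Between 0 and 6 h the difference rose for Batf3 (1.39) and fell for Cadm1 (-0.15), and no other marker of this list passed. Xcr1, Clec9a and Cd24a were not among the genes tested. Of 11 endothelial markers 9 were lower and 1 higher at 6 h, with mean levels of 11.95, 12.16 and 12.37 in sensitized lungs against 12.28, 12.42 and 12.45 in naive lungs. At 0 h 5 of the 11 were lower and at 72 h 9, with median differences of -0.15 and -0.29, and none was higher. More cells of a type and more RNA per cell cannot be told apart in whole lung, and the part of these shifts in the class I differences was not tested. The actin control probe sets at the 3′ end exceeded those at the 5′ end, a measure of RNA integrity, by 1.05 log2 units in sensitized and 1.23 in naive lungs at 6 h (adjusted p = 0.0224 over 8 times, two-sided exact permutation test). They did so by 0.97 in sensitized and 1.10 in naive lungs at 24 h (adjusted p = 0.0213, exact permutation test) and by 1.50 in sensitized and 1.21 in naive lungs at 168 h (adjusted p = 0.0319, exact permutation test). The other 5 times did not pass, and the part of this measure was not tested.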

How the data were processed

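RNA of 123 mouse lungs was labelled by Affymetrix 3′ in vitro transcription and the authors deposited RMA-normalized log2 values of 25697 probe sets, per the submitters' processing notes; the RMA version, the probe set filter and any batch are not given in the sources consulted. Of these, 10 are controls, 22487 carry 1 gene symbol, 259 several and 2950 none in the platform annotation. From the deposited log2 values, 1 probe set per gene (the highest mean) was kept, giving 13053 genes. limma 3.58.1 (R 4.3.3) fitted 1 mean per group over 123 arrays with 107 residual degrees of freedom, and Benjamini-Hochberg adjustment over all genes at 0.05 made the calls. The procedure was checked on simulated data. Each mouse is 1 replicate; numbers are in accession order. No 2 arrays were identical (highest correlation 0.99732). The number of arrays limits the precision.

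The members, the lists and the tests were chosen with earlier results of these data known. From each list, up to 4 genes were named: those with the largest absolute difference among called genes at the time when the list's median absolute difference was largest. Their values at further times, and Ifngr1, were added after they were seen. The nearest genes are the 5 with the highest correlation with the members' standardized mean. Motifs were searched with Python 3.11.15 in RefSeq windows of GRCm38.p6, found for 8 of 10 members; Tap2 and Nlrc5 had none. Alternatives were the fit to 1 time, array weights, other probe set choices, other scalings, a filter on low values, trended robust variances, and leaving out mice or arrays with other tissue.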

Additional observations from a re-analysis of the deposited data

Results flagged for a closer look

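In 7 of 160 groups of 4 to 10 mice, 1 mouse stood apart from the rest by Dixon's criterion, which chance alone gives in about 1 of 20 groups. H2-K1 was 12.52 in sensitized replicate 7 at 96 h, below the next at 12.67, and 12.49 in naive replicate 2 at 24 h, above the next at 12.28. H2-D1 was 13.93 in naive replicate 2 at 96 h, below the next at 14.06. Tap1 was 10.59 in sensitized replicate 5 at 48 h, below the next at 11.00. Tapbp was 13.63 in naive replicate 1 at 6 h, an array with high squamous and muscle markers, below the next at 13.69. Nlrc5 was 11.09 in sensitized replicate 2 at 96 h, above the next at 10.86, and 11.51 in naive replicate 6 at 168 h, above the next at 10.76.

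For 9 members the difference between sensitized and naive lung varied with time in the F test. The largest change since 0 h was at 6 h for Tap1 (0.97), Nlrc5 (0.93), Tap2 (0.63), Psmb9 (0.59), Psmb8 (0.58), Psmb10 (0.49) and Tapbp (0.089), each with an adjusted p of at most 0.0159 (limma). For H2-K1 and H2-D1 it was at 168 h, at -0.28 (SE 0.087, adjusted p = 0.0596, limma) and -0.12 (SE 0.045, adjusted p = 0.144, limma), so that for these 2 no single time passed.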

How the results depend on the processing

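With array weights, members called higher at 48 h numbered 6 and members called higher at 96 h numbered 5. The count at 96 h was also 5 with arrays of other tissue left out, none of which was taken at 96 h. With the mean of all probe sets, members that varied over time in naive mice numbered 3. Tap1 at 96 h was -0.0052 with the probe set of lowest mean, the 1 reversal. Leaving out each of 92 mice in turn at 6 times gave 4 to 8 members called higher at 0 h, 9 at 6 h, 8 to 9 at 24 h, 1 to 2 at 48 h, 6 to 9 at 72 h and 2 to 5 at 96 h; the lowest at 0 h came without sensitized replicate 1 and at 48 h without naive replicate 4 or 5, and the highest at 96 h without sensitized replicate 3. This was not run at 2 and 168 h, where no member was called. Of the single member values, 887 kept their direction and side of the threshold, 26 lost and 7 gained a call, and 0 reversed; under the other alternatives 685 kept both, 12 lost and 22 gained a call and 1 reversed. The causes of these changes were not tested. Shares of all genes called under each alternative are not given here, so a changed count may not be particular to the members. No paired analysis was possible because replicate numbers are in accession order and pair no mice. Signal over background was not analysed here, which limits what the dim second probe set of Tap1 (mean 7.90) shows.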
